A study of Homo sapiens with 8 samples.

Results

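LYN, GAB2, PTK2B and FLT3 are 4 genes of tyrosine kinase signalling, and their regions of differential histone H3 lysine 79 methylation are described here. A region was taken as a member when the authors' annotation named one of these genes in its promoter, exon, intron or untranslated region columns. This gave 36 of 8746 H3K79me2 regions and 21 of 13666 H3K79me3 regions, 57 of 22412 in all. All 4 genes had regions of both marks, and none of the 57 regions named a second gene. The members were thus chosen by the authors' calls of differential regions, and the genes were selected on the known signs and numbers of those regions. Every value below is therefore a description of chosen genes.

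The regions come from ChIP-seq of H3K79me2 and H3K79me3, the di- and trimethylated states of that lysine, in MOLM-13, an established human acute myeloid leukemia line. Per the labels, one group carried ShNC, the control, tagged as control siRNA, and the other carried ShLAMP5-AS1, named for a long noncoding RNA antisense to LAMP5. MOLM-13 is known to carry an MLL fusion gene and an internal tandem duplication in FLT3, which both groups share. Each mark had 1 ChIP and 1 input library per group, 8 libraries in all, so no difference has a replicate check and no p-value is given. The labels also hold a growth text about a xenograft-derived culture and a treatment text about other knockdowns, which go against the cell type and transfection entries used here.

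Each deposited row holds a region, the authors' signed score for it and an annotation. The unit of the score is not given in the sources used here, and neither is which group a positive score favours. Signs follow the deposited tables, and the direction of a change on knockdown cannot be read from them. The size of a score is read only as a rank within its own table, where the median size was 10.2 for H3K79me2 and also 10.2 for H3K79me3. The scores take few values (521 distinct ones in the H3K79me2 table and 356 in the H3K79me3 table), so identical scores in different regions are common. The tables used here hold no read counts, so the depth behind a region is unknown. Positions are as deposited. GAB2 and FLT3 lie on the minus strand, so their transcription runs from high to low coordinates. None of the 57 regions lay inside its gene's GRCh38 bounds although all 57 were on its chromosome, so the build is not GRCh38, and hg19 is the other build in the submitters' notes.

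Tyrosine kinases pass signals from the cell surface by phosphorylating tyrosines on themselves and on adaptor proteins, which then gather enzymes of the PI3K, Ras and STAT branches. FLT3 is the receptor of this group, a class III receptor tyrosine kinase of early blood progenitors that is often mutated in acute myeloid leukemia. LYN is a Src family kinase of myeloid and B cells, PTK2B (PYK2) is a calcium-responsive kinase of the focal adhesion kinase family, and GAB2 is a scaffold adaptor without kinase activity that binds PI3K and the phosphatase encoded by PTPN11. Methylation of H3 lysine 79 is written by DOT1L, mostly over transcribed gene bodies, and MLL fusion proteins recruit that enzyme to their target genes.

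The 2 marks carried different signs over these genes. All 36 H3K79me2 regions had a positive score, while 44.7% of the whole H3K79me2 table was positive. Regions of a gene share their libraries and are not replicates, and the genes were selected on these signs, so nothing is read from the difference. Of the 21 H3K79me3 regions, 18 had a negative score (85.7%), beside 97.5% of that table. The other 3 H3K79me3 regions were positive, 1 each in LYN, GAB2 and FLT3, in a table with 2.47% positive regions. Genes with H3K79me3 regions of both signs made up 3.54% of the 4045 genes with a region of that mark. The median of these genes had 2 regions, and a gene with 1 region cannot hold both signs. LYN, GAB2 and FLT3 had 5, 4 and 6, so this share is not matched to their numbers. The score sizes were ordinary: 22 of the 36 H3K79me2 members lay above their table's median size, 13 below and 1 on it, and for H3K79me3 these counts were 12, 6 and 3.

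**Figure D1:**
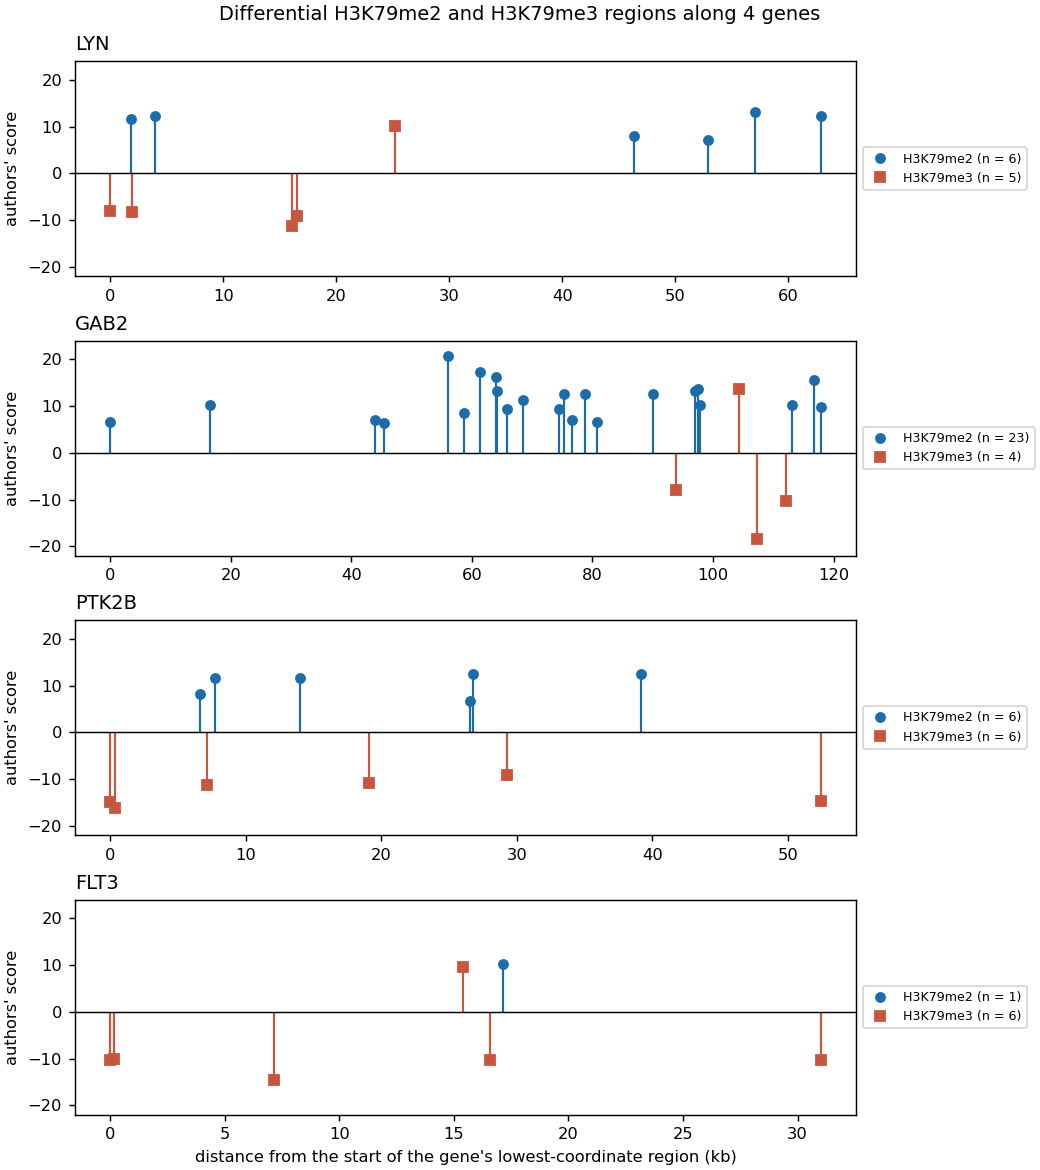
Signed score of the authors (y axis) of every H3K79me2 (circles) and H3K79me3 (squares) region in LYN, GAB2, PTK2B and FLT3, against the distance in kb from the start of each gene's lowest-coordinate region (x axis). All 36 circles lie above 0, and 18 of the 21 squares lie below it.

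FLT3, the receptor, had the fewest H3K79me2 regions and mostly H3K79me3 regions. Its single H3K79me2 region was intronic, at chromosome 13, 28649503 to 28649610, with a score of 10.2, the table's median size. The 6 H3K79me3 regions, all intronic, spanned 31.1 kb. A pair 76 bp apart at the low-coordinate end scored -10.3 (28632375 to 28632480) and -10.2 (28632556 to 28632642). The strongest, -14.6, followed at 28639535 to 28639649 and exceeded 84.6% of the H3K79me3 score sizes. The remaining negative regions scored -10.3 (28648950 to 28649031) and -10.2 (28663392 to 28663499). Apart from the region at -14.6, the FLT3 scores of both marks thus lay close to the median size of their tables. The positive H3K79me3 region of FLT3, at 28647763 to 28647837 with a score of 9.66, ended 1113 bp before a negative one. Within less than 2 kb, FLT3 therefore held a positive H3K79me3, a negative H3K79me3 and the positive H3K79me2 region, in that order along the chromosome.

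LYN, the Src family kinase, had 6 H3K79me2 regions, all positive and all intronic, over 61.1 kb of chromosome 8. The first pair scored 11.7 (56794397 to 56794497) and 12.2 (56796473 to 56796558). The first of these is annotated to the shore of a CpG island, the flank of a CpG-rich stretch. After 42.3 kb without an H3K79me2 region came 4 more, with scores of 7.99, 7.18, 13.2 and 12.2, the last at 56855413 to 56855488. The largest, 13.2 (56849564 to 56849699), exceeded 80.5% of H3K79me2 score sizes, so none of the LYN regions was extreme in its table. LYN was the only one of the 4 genes with an H3K79me3 region annotated to a promoter, an exon or a CpG island, all in 1 region at 56792540 to 56792639. That region scored -8.00, a size that exceeds only 17.6% of the table. The other H3K79me3 regions of LYN were intronic, with scores of -8.23 (56794475 to 56794645), -11.3 (56808606 to 56808670), -9.08 (56809045 to 56809109) and 10.2 (56817744 to 56817809). LYN had the smallest H3K79me3 sizes of the 4 genes by median (9.08), and its single positive region ranked 129 among the 337 positive regions of the table.

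PTK2B, the kinase of the focal adhesion kinase family, was the gene in which every H3K79me2 region was positive and every H3K79me3 region negative. Of the 2080 genes with regions of both marks, whatever their number, 23.4% had this pattern. It is not particular to PTK2B at similar numbers either, since SLC23A2 had 6 positive H3K79me2 and 5 negative H3K79me3 regions. Among the 273 genes with 6 or more H3K79me2 regions, 8.06% had positive H3K79me2 regions only. The 6 H3K79me2 regions spanned 32.6 kb of chromosome 8 and scored, from low to high coordinate, 8.13, 11.6, 11.6, 6.61, 12.5 and 12.5. The first lay at 27195207 to 27195327 and the last at 27227723 to 27227797, and all were intronic. The 6 H3K79me3 regions, also intronic, reached farther on both sides and spanned 52.6 kb. Their scores were -15.0 (27188571 to 27188657), -16.2 (27188905 to 27188990), -11.3 (27195739 to 27195889), -10.7 (27207705 to 27207768), -9.08 (27217884 to 27217980) and -14.6 (27241016 to 27241145). The outer regions were thus the strongest and the middle ones the weakest. The median H3K79me3 score of -13.0 was the most negative of the 4 genes, and the region at -16.2 exceeded 91.2% of the table's sizes.

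GAB2, the adaptor, held 23 of the 36 H3K79me2 regions, all positive, over 118 kb of chromosome 11. By number of H3K79me2 regions GAB2 ranked 7 among the 3665 genes with a region, where the median gene had 1. Positive regions alone were found in 32.3% of the 3665 genes. Among the genes with positive H3K79me2 regions only, LRRC8C, a subunit of an anion channel, came after GAB2 with 22. Of the 273 genes with 6 or more H3K79me2 regions, which include LYN and PTK2B, 8.06% had positive regions only. Counted per length of the stretch between first and last region, GAB2 had 1.95 H3K79me2 regions per 10 kb, close to PTK2B with 1.84, while LYN had 0.98. This stretch is set by the counted regions and not by gene length, so nothing is read from it about the larger number in GAB2.

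The H3K79me2 regions of GAB2 formed runs, taken as regions with gaps of at most 5 kb. The longest run held 7 regions over 12.7 kb, from 78064993 to 78077659, and began with the largest score of all members, 20.6 (78064993 to 78065253), which ranked 62 among 3911 positive regions. It continued with 8.41, 17.3 (78070391 to 78070546), 16.2 (78073067 to 78073165), 13.2, 9.44 and 11.3. This run thus held the 3 largest H3K79me2 scores among the 4 genes. The next run, 5 regions from 78083435 to 78089870, scored 9.32, 12.5, 7.11, 12.5 and 6.68, so sizes above and below the table's median alternated. At higher coordinates came a single region of 12.5, then 3 regions of 13.2, 13.7 and 10.2 (78105970 to 78107101), then 3 of 10.3, 15.6 and 9.80 (78122105 to 78127021). The last of these, 78126926 to 78127021, is annotated to a CpG island shore. The 4 regions at the low-coordinate end scored 6.68, 10.3, 6.95 and 6.41, of which the 10.3 matched the median of GAB2. Among them were the only H3K79me2 members annotated to a promoter, at 78053002 to 78053087 (6.95) and 78054526 to 78054598 (6.41), which were also annotated as intronic. Their sizes exceeded 7.37% and 3.25% of the table, so the promoter regions were among the weakest.

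GAB2 had only 4 H3K79me3 regions, all intronic and all within 18.3 kb near the high-coordinate end. Their scores were -8.00 (78102961 to 78103025), 13.7 (78113319 to 78113388), -18.5 (78116350 to 78116424) and -10.2 (78121160 to 78121223). The -18.5 was the largest H3K79me3 size among the 4 genes and exceeded 95.5% of its table. The 13.7 ranked 44 among the 337 positive H3K79me3 regions, the highest rank of the 3 positive members.

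**Figure D2:**
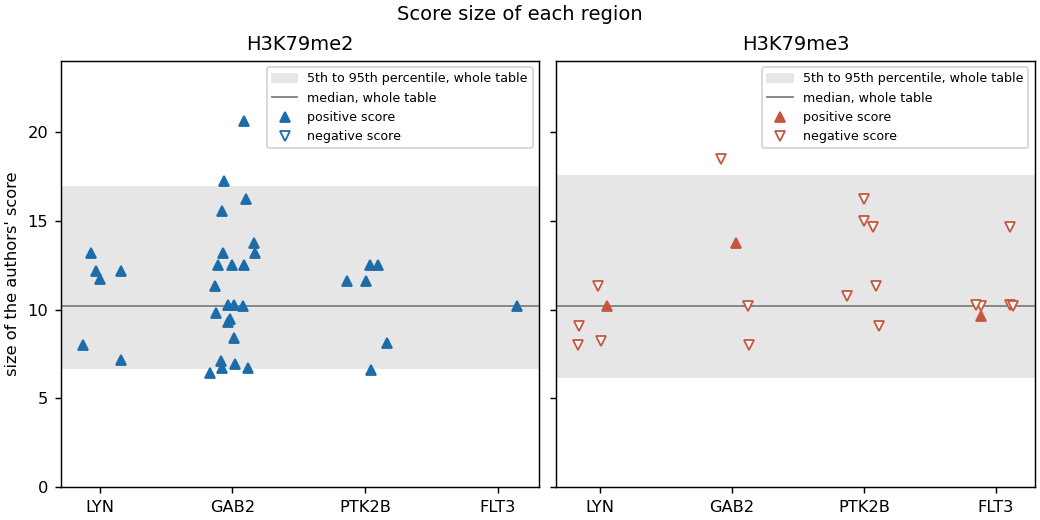
Size of the authors' score (y axis) of each H3K79me2 (left) and H3K79me3 (right) region by gene, with filled upward triangles for positive and open downward triangles for negative scores. The grey band runs from the 5th to the 95th percentile of the whole table (6.68 to 16.9 for H3K79me2, 6.17 to 17.5 for H3K79me3), and the 3 members above it are all in GAB2.

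The marks seldom met, within these genes as in the whole series. Only 1 of the 36 H3K79me2 regions overlapped an H3K79me3 region by at least 1 bp. That was in LYN, where the positive 56794397 to 56794497 (11.7) and the negative 56794475 to 56794645 (-8.23) shared 22 bp on the CpG island shore. In the whole series 1.81% of H3K79me2 and 1.16% of H3K79me3 regions overlapped, and 52 of those 159 pairs joined a positive H3K79me2 with a negative H3K79me3 region. A further 4 H3K79me2 members had an H3K79me3 region within 1 kb. In PTK2B the H3K79me3 region of -11.3 lay between H3K79me2 regions of 8.13 and 11.6, at gaps of 412 and 387 bp. In FLT3 the gap from the H3K79me2 region to the H3K79me3 region of -10.3 was 472 bp, and in GAB2 the smallest gap was 882 bp. In all 5 cases the H3K79me2 score was positive and the nearest H3K79me3 score negative. Since all 36 H3K79me2 members were positive and 18 of the 21 H3K79me3 members negative, nothing is read from these pairs.

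Measured from the H3K79me2 regions, the marks lay farther apart in LYN and GAB2 than in PTK2B. In LYN, 3 of the 5 H3K79me3 regions, the positive one included, lay in the 42.3 kb stretch without H3K79me2 regions. In GAB2, 3 of the 4 H3K79me3 regions, again with the positive one, lay in a 15 kb stretch free of H3K79me2 regions, from 78107101 to 78122105. The run of 7 H3K79me2 regions in GAB2 held no H3K79me3 region. Between the first and last H3K79me2 region of the gene lay 4 of the 5 H3K79me3 regions of LYN, all 4 of GAB2 and 3 of the 6 of PTK2B. The median distance from an H3K79me2 region to the nearest H3K79me3 region of the same gene was 24.3 kb in LYN, 19.4 kb in GAB2 and 2.58 kb in PTK2B. In GAB2 this sets 23 H3K79me2 regions against only 4 H3K79me3 regions, and the distance from H3K79me3 to H3K79me2 regions was not computed.

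Of the 36 H3K79me2 members, 34 were annotated to introns alone (94.4%, against 85.9% of the table), and of the 21 H3K79me3 members 20 were (95.2%, against 79.6%). Promoters were named for 2 H3K79me2 members and 1 H3K79me3 member, beside 5.55% and 8.21% of the tables. Members had to name a gene in the promoter, exon, intron or untranslated region columns, while the table shares count all regions. These differences are thus partly set by the choice of members, and nothing is read from them. No member was annotated to an untranslated region. The median width of members was 100 bp for H3K79me2 and 85 bp for H3K79me3, against 88 and 85 bp in the tables. The widest members were 274 bp in GAB2 (78025615 to 78025889) and 260 bp at its largest score.

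Around the 4 genes, H3K79me2 regions were few except beside FLT3. In the 250 kb on either side of the outermost LYN region there was no H3K79me2 region. The flanks of GAB2 held 2 H3K79me2 regions, both negative and both on the low-coordinate side (NDUFC2 among the genes named), and those of PTK2B held 1, negative, in TRIM35. Beside FLT3 the neighbouring gene PAN3, a subunit of a poly(A) nuclease complex, had 5 negative and 4 positive H3K79me2 regions and 20 negative H3K79me3 regions. No positive region of either mark other than those 4 lay in these flanks. The closest protein-coding neighbours in RefSeq order were TGS1 and RPS20 for LYN, USP35 and NARS2 for GAB2, TRIM35 and CHRNA2 for PTK2B, and URAD and PAN3 for FLT3. Among these 8 genes, PAN3 was the only one with a positive H3K79me2 region. Over whole chromosomes the positive share of H3K79me2 regions was 42.2% for chromosome 8, 43.1% for chromosome 11 and 39.7% for chromosome 13, each near the 44.7% of the table.

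Across the wider pathway, 111 genes in 9 lists were examined, 107 of them other than LYN, GAB2, PTK2B and FLT3. Of these 107, 49 had an H3K79me2 region. Regions were all positive in 15 of the 49 genes, all negative in 14 and of both signs in 20, while these shares of the table's genes were 32.3%, 41.5% and 26.2%. Their 178 H3K79me2 regions were 72 positive and 106 negative (40.4% positive, near the 44.7% of the table, of which 55.3% was negative). For H3K79me3, 45 of the 107 had a region, and all 174 regions were negative, beside 97.5% of the table's regions. All 45 genes thus had negative regions only, beside 94.3% of the table's genes. The 3 positive H3K79me3 regions of the 111 genes were therefore those in LYN, GAB2 and FLT3. Of the 34 other list genes with regions of both marks, 11 had positive H3K79me2 and negative H3K79me3 regions only, as PTK2B did (32.4%, beside 23.4% of all such genes). The median of the gene medians was -6.17 over the 49 others with an H3K79me2 region and -9.25 over the 45 with an H3K79me3 region, against -5.86 and -9.91 over all genes with a region.

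**Figure D3:**
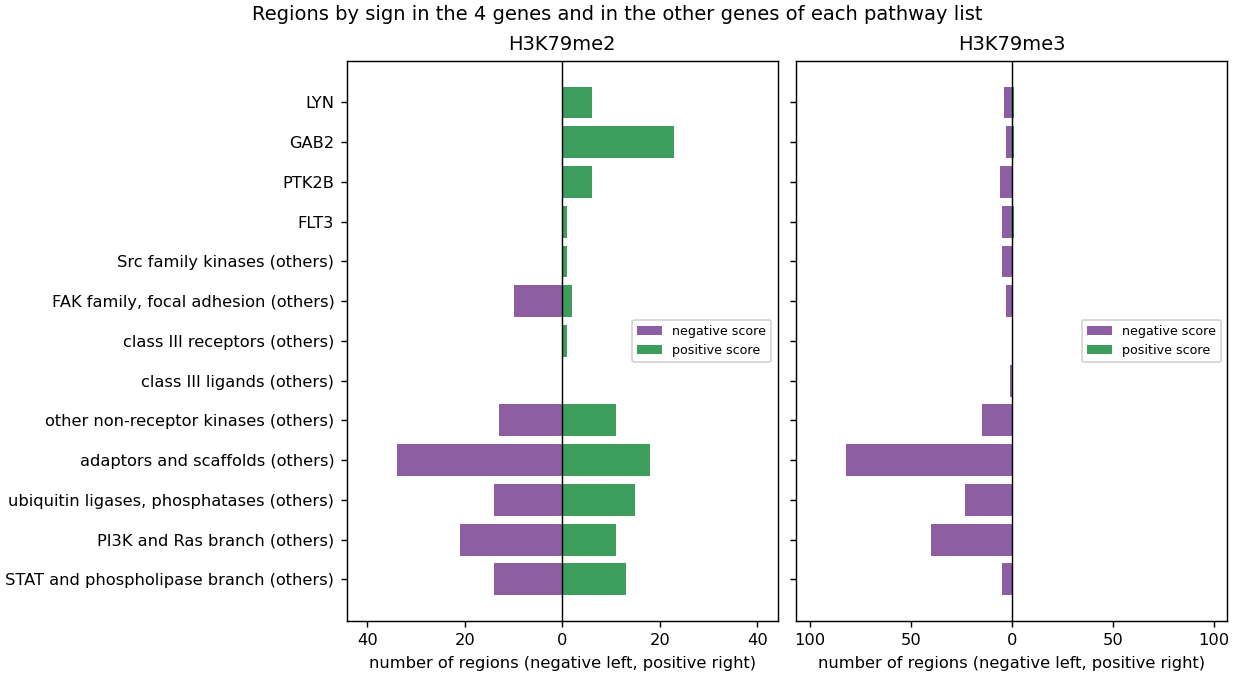
Number of regions with a negative (left of 0) and positive (right of 0) score in each of the 4 genes and, summed, in the other genes of each pathway list, for H3K79me2 and H3K79me3 (x axes differ in scale). LYN, GAB2, PTK2B and FLT3, which were selected on these signs, have H3K79me2 bars on the positive side only. The other genes of all lists together have 106 negative and 72 positive H3K79me2 regions.

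Among the other receptors and ligands, regions were few. CSF1R, the receptor of macrophage colony-stimulating factor, was the only other class III receptor with an H3K79me2 region (9.08), and KIT, PDGFRA and PDGFRB had none of either mark. None of the 8 ligand genes, FLT3LG included, had an H3K79me2 region, and PDGFC had a single H3K79me3 region of -6.06. Of the other 8 Src family kinases, YES1 had 1 positive H3K79me2 region (14.5) and 4 negative H3K79me3 regions, the largest -12.0. PTK2, the kinase most akin to PTK2B, had no region of either mark. VCL, the focal adhesion protein vinculin, had 8 negative and 2 positive H3K79me2 regions with extremes of -15.5 and 13.7.

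Other cytoplasmic kinases and adaptors went both ways. SYK, which acts beside LYN in immune receptor signalling, had 5 H3K79me2 regions, all negative with the largest at -12.9, and 6 negative H3K79me3 regions with the largest at -18.5. TEC, a kinase of the BTK family, had 6 negative and 5 positive H3K79me2 regions, with extremes of -13.7 and 16.3. Of the other 20 adaptors, 12 had an H3K79me2 region, 5 negative only, 3 positive only and 4 both. PAG1, a membrane adaptor for CSK, the kinase that inhibits the Src family, had 7 H3K79me2 regions, all positive, up to 18.6, and no H3K79me3 region. IRS2, an insulin receptor substrate, went the other way with 14 negative H3K79me2 regions (largest -15.0) and 16 negative H3K79me3 regions (largest -18.8). GRB2, the adaptor that binds GAB2 and brings SOS proteins to Ras, had 26 negative H3K79me3 regions, the largest at -25.6, and 2 H3K79me2 regions of each sign. NCK2 had 6 negative and 1 positive H3K79me2 regions and 9 negative H3K79me3 regions, and CRKL had 10 negative H3K79me3 regions and 2 H3K79me2 regions, both positive with the larger at 15.9. GAB3, a relative of GAB2, had 1 negative region of each mark (-9.17 for H3K79me2 and -7.17 for H3K79me3), and GAB1 had none.

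The downstream branches were divided as well. SOS1, the exchange factor that activates Ras, had 8 negative H3K79me2 regions (largest -19.6) and 7 negative H3K79me3 regions (largest -16.0). RASA1 and NF1, which switch Ras off, had 14 and 5 negative H3K79me3 regions, with largest scores of -12.0 and -19.6. For H3K79me2, NF1 had 2 regions, both positive with the larger at 10.00, and RASA1 had 3 negative and 1 positive. AKT2, a kinase downstream of PI3K, had 2 H3K79me2 regions of each sign, with extremes of -11.3 and 18.8. STAT5B, a transcription factor activated by mutant FLT3, had 5 negative and 2 positive H3K79me2 regions (largest -18.2), and STAT3 had 4 negative and 1 positive. VAV1, a guanine nucleotide exchange factor of blood cells, had 4 positive and 1 negative H3K79me2 regions and a largest score of 23.1, above any member. PRKCD had 3 negative H3K79me3 regions, the largest at -12.5. The list of ubiquitin ligases, phosphatases and suppressors of cytokine signalling that act on the pathway held 14 genes. Of these, 10 had an H3K79me2 region, 4 positive only, 3 negative only and 3 both, and 15 of their 29 regions were positive. INPP5D, a lipid phosphatase that opposes PI3K, had 4 H3K79me2 regions, all positive up to 17.3, and 2 negative H3K79me3 regions. PTPN12, a phosphatase that acts on focal adhesion proteins, had 3 negative H3K79me2 regions with a largest score of -24.2 and 8 negative H3K79me3 regions. PTPRJ, a receptor-type phosphatase, had 4 negative and 3 positive H3K79me2 regions with extremes of -14.2 and 20.1, and SOCS2, a suppressor of cytokine signalling, had 5 negative H3K79me3 regions with the largest at -21.4.

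**Figure D4:**
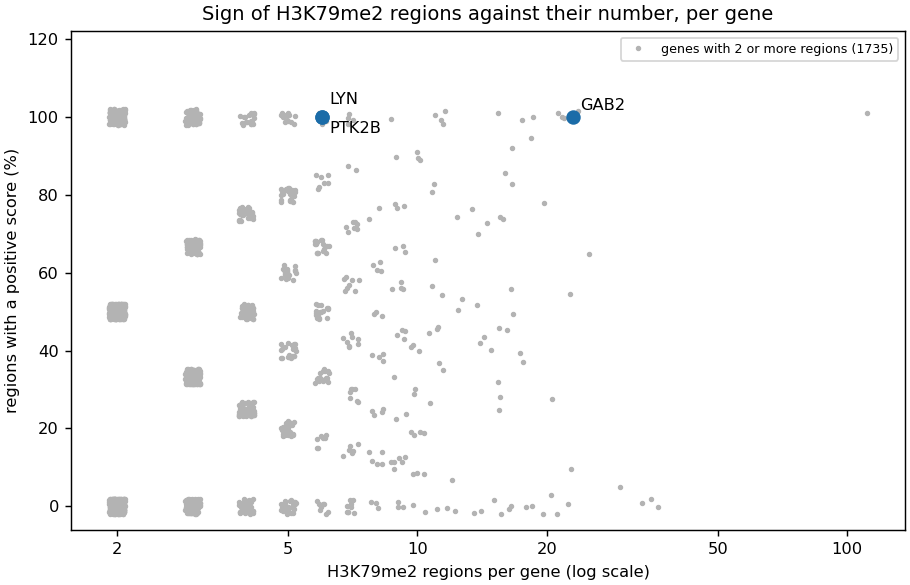
Share of H3K79me2 regions with a positive score (y axis, percent) against the number of H3K79me2 regions per gene (x axis, log scale) for the 1735 genes with 2 or more regions, each a grey point shifted slightly at random. LYN and PTK2B (6 regions each, at the same place) and GAB2 (23 regions) are drawn in blue at 100%, and FLT3, with 1 region, is not shown.

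Genes with similar patterns were sought over all 5630 genes with a region of either mark, by the distance between their 4 counts (negative and positive regions of each mark, on a log2(count + 1) scale). Nearest to GAB2 was RSRC1 at a distance of 0.35, with 21 positive H3K79me2 regions and 4 negative and 1 positive H3K79me3 regions. SDC2 followed at 0.42 and LRRC8C at 1.00. Nearest to LYN was ERBB2IP at 0.19, with 7 positive H3K79me2 regions and the same H3K79me3 counts as LYN, then CHD1 at 0.58 and UIMC1 at 0.85. PTK2B was nearest to SLC23A2 (0.22), LOC648987 (0.27) and C16orf72 (0.29), and FLT3 to WHSC1 (0.26), RBM26 (0.42) and P4HA1 (0.58, tied with 1 further gene). None of these 12 genes is in the pathway lists.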

How the data were processed

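Per the labels, H3K79me2 and H3K79me3 ChIP-seq libraries and inputs came from MOLM-13 cells. The deposited tables give the authors' signed score per region, which has no unit per the file headers. The submitters' processing notes name Bowtie2, bedtools, DESeq2 and MACS2 2.1.1, and how the tables were made is not given in the sources used here. Score signs matched the region names (0 exceptions).

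Regions were assigned by gene name, counted by sign and set beside the whole table, without a test. RefSeq (GRCh38.p14) gave names, strands and neighbour order, and all 111 list genes matched. Software was Python 3.11.15 with matplotlib 3.10.9, scipy 1.17.1, pandas 2.3.3 and numpy 2.4.6, and counting steps were tested on simulated data. Members and lists were chosen with earlier results of these data known. List genes were named for at least 5 regions in a mark (at most 4 per list) or the largest score per sign. NDUFC2, CSF1R, INPP5D, PTK2, KIT, PDGFRA, PDGFRB, FLT3LG, GAB1 and GAB3 were named after their values were seen. Alternatives were the 2 kb flanking columns, introns only, single-gene regions, a score size of at least 10, merging within 5 kb, other overlap limits and, added after the data were seen, leaving out each gene.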

Additional observations from a re-analysis of the deposited data

Results flagged for a closer look

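In PTK2B all regions of one mark had the opposite sign to all regions of the other, with a median score of 11.62 over 6 H3K79me2 regions and of -12.98 over 6 H3K79me3 regions. Of all genes with regions of both marks, whatever their number, 23.4% showed the same pattern. The share with this pattern among genes with as many regions of both marks as PTK2B was not computed. This difference between the marks was not tested, since each group had 1 library per mark.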

How the results depend on the processing

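The positive share of H3K79me2 regions was 100% under every alternative tried, down to 23 regions with a score size of at least 10, 17 after merging within 5 kb and 13 without GAB2. Apart from the 2 kb flanking columns, which gave 36 of 36, these alternatives took subsets or merges of the same positive regions. The share under them was therefore fixed in advance. The negative share of H3K79me3 regions ranged from 80% without PTK2B to 88.2% without GAB2. Overlapping H3K79me2 members numbered 0 with reciprocal overlap of 50% and 5 with gaps of at most 1 kb, against 1. With a score size of at least 10, H3K79me2 medians became 12.19 for LYN, 12.86 for GAB2 and 12.07 for PTK2B. H3K79me3 medians became -10.19 for GAB2, -14.63 for PTK2B, -10.25 for FLT3 and -0.58 for LYN, where only 1 negative and 1 positive region were left. No paired analysis was possible because each group held 1 library. Read depth per library was not used here.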
